A study of Mus musculus with 8 samples.

Results

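Co-inhibitory receptors are surface proteins that dampen the response of a T cell to its antigen, and 9 of their genes were followed here by gene symbol: Lag3, Btla, Pdcd1, Ctla4, Havcr2, Tigit, Cd160, Cd200 and Lair1. All 9 were among the 29426 gene symbols counted, and all 9 were among the 12313 that passed the expression filter. They also reached its cutoff in at least 2 of the TN libraries, counted over both genotypes. RNA came from CD8+ T cells that were enriched on beads from mouse spleen and sorted on CD8, CD4, CD44, CD122 and viability. The 8 libraries form 4 groups of 2, named by genotype and subset in the sample titles: mCre-MP, mCre-TN, WT-MP and WT-TN. WT and mCre are the genotype labels and TN and MP the subset labels. Ctla4 and Havcr2 reached the filter's cutoff in only 1 library of mCre-TN and 1 of WT-TN. Lag3 reached it in only 1 library of WT-TN, and Cd200 in only 1 of WT-MP. The series title adds miR-29 and Cre, and the submitters' design description uses VM where the titles have MP. The sources used here do not give the allele, promoter or strain behind mCre, or which libraries came from adult and which from neonatal spleens. The labels do not state that the libraries of a group came from separate animals. The p-values measure a spread between libraries that was estimated from all 8 and shared in part across genes. With 2 libraries per group, this spread may be technical.

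T cells need a signal from the antigen receptor and a costimulatory signal, and the co-inhibitory receptors work against both. PD-1 (Pdcd1), BTLA, TIGIT, LAIR-1 and CTLA-4 carry cytoplasmic tyrosines or related motifs through which phosphatases are recruited or signalling is cut back, and CTLA-4 and TIGIT also take ligands away from the costimulatory receptors CD28 and CD226. In CD8+ T cells several of these receptors are low in naive cells, appear on activation and stay high together in exhausted cells, whereas BTLA is known as a receptor of resting lymphocytes as well.

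Total counts per library ranged from 13479586 to 30057658, and the 2 libraries of each group differed by more than sampling noise. Levels are given as CPM, counts scaled to library size with trimmed-mean (TMM) factors, and differences as log2 fold changes with edgeR's quasi-likelihood test and Benjamini-Hochberg adjusted p. Cd8a, the chain that defines the sorted cells, had 21769 to 53022 counts per library, while Cd4 had 0 to 9. Cd44 and Il2rb, which encodes CD122, were higher in all 4 MP libraries than in any TN library. Markers of other cell types were detected. B cell markers summed to 18.2 to 27.6 CPM over the 4 groups, erythroid and platelet markers to 16.1 to 50.6 CPM, and the CD4 and regulatory T cell list to 354 to 443 CPM, of which Cd4 itself gave at most 0.37 CPM and Foxp3 at most 2.58 CPM. The dendritic cell list, which holds Ccr9 of naive T cells, summed to 75.8 to 113 CPM in mCre-MP, 196 to 221 in mCre-TN, 84.9 to 104 in WT-MP and 172 to 182 in WT-TN. Lists that differed between subsets or genotypes are given beside the results they move with.

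Because the series title names miR-29, the mature forms of that family were set against the receptor transcripts, with the seed (bases 2 to 8) in capitals as RefSeq gives them on GRCm38.p6.
mmu-miR-29a-3p: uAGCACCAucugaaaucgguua
mmu-miR-29b-3p: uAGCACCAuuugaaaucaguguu
mmu-miR-29c-3p: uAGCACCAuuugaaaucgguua
All 3 share 1 seed, which pairs with the letters TGGTGCT. In the longest annotated 3' UTR of each gene (GENCODE M21), 2 of the 9 receptor transcripts held these letters, Btla and Lair1, and 16.7% of 11654 tested genes with a 3' UTR held them. The matches are shown in capitals with their flanks, starting at base 116 of the Btla 3' UTR and base 4249 of the Lair1 3' UTR.
Btla: tgctctgtgcTGGTGCTgcgtcttaaa
Lair1: cccttgtcttTGGTGCTgtatcagata
A match describes the letters and does not show that the microRNA acts there.

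Lag3, which encodes a receptor for MHC class II (GRCm38 chromosome 6, 124904361 to 124911705, minus strand), was higher in MP than in TN cells of both genotypes, and higher in mCre-MP than in WT-MP cells. Its levels were 4.84 and 6.05 CPM in mCre-MP, 0.851 and 1.28 in mCre-TN, 2.07 and 1.79 in WT-MP, and 0.665 and 0.215 in WT-TN. No group's libraries overlapped with those of another. The subset difference was 2.39 on the log2 scale in mCre (SE 0.315, adjusted p = 6.98e-06) and 2.23 in WT (SE 0.445, adjusted p = 0.000667), although the WT-TN level rests on 9 and 4 counts. Without WT-TN replicate 1 the WT value was 3.15 and without WT-TN replicate 2 it was 1.54, both past the threshold. Between genotypes Lag3 rose by 1.49 in MP, a 2.82-fold difference (SE 0.292, adjusted p = 0.00508). In TN the difference was 1.33 with an adjusted p of 0.148, and it was 2.24 without WT-TN replicate 1 and 0.63 without WT-TN replicate 2. Over both subsets, with subset as a covariate, it was 1.45 (SE 0.248, adjusted p = 0.000476). The call in MP was lost without WT-MP replicate 2 (adjusted p = 0.0661) and without mCre-MP replicate 2 (0.0981), with differences of 1.39 and 1.31, and the call over both subsets was kept with any library left out. The interaction, which asks whether the subset difference differs between genotypes, was 0.17 with a 95% interval of −1.16 to 1.49.

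Pdcd1, which encodes PD-1 (chromosome 1, 94038305 to 94052553, minus strand), showed the same order of groups at a smaller size. It stood at 5.66 and 5.55 CPM in mCre-MP, 2.45 and 2.57 in mCre-TN, 3.02 and 3.68 in WT-MP, and 2.07 and 1.5 in WT-TN. Again no group overlapped with another. MP exceeded TN by 1.16 in mCre (SE 0.223, adjusted p = 0.000454) and by 0.93 in WT (SE 0.261, adjusted p = 0.0101). The WT call was lost without WT-TN replicate 2 (adjusted p = 0.122) and without WT-MP replicate 2 (0.0829). The genotype difference over both subsets was 0.65, or 1.57-fold (SE 0.171, adjusted p = 0.0168). It did not pass without WT-MP replicate 1 (adjusted p = 0.081), mCre-MP replicate 1 (0.0611) or mCre-MP replicate 2 (0.0594). Within MP alone the value was 0.74 (adjusted p = 0.0662), and within TN 0.51 (0.344). The MP difference passed with voom (adjusted p = 0.0485), with no expression filter (0.0378), with the MP groups fitted alone (0.0464) and without WT-TN replicate 2 (0.0478). With no filter 888 of all genes were called between genotypes in MP, against 498 with it.

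Ctla4 and Tigit, both of which compete with a costimulatory receptor for its ligands, followed the subset. Ctla4 (chromosome 1, 60887000 to 60915832, plus strand) had 34 and 64 counts in mCre-MP, 7 and 13 in mCre-TN, 30 and 37 in WT-MP, and 8 and 4 in WT-TN. As CPM these are 1.87 and 2.63, 0.229 and 0.667, 1.30 and 1.70, and 0.591 and 0.215 in the same 4 groups. Both genotypes had MP libraries above their TN libraries, by 2.45 in mCre (SE 0.471, adjusted p = 0.000454) and 1.97 in WT (SE 0.546, adjusted p = 0.0094). The WT call was lost without WT-TN replicate 2 (1.34, adjusted p = 0.138) or WT-MP replicate 2 (1.76, adjusted p = 0.0586), and without WT-TN replicate 1 the value was 2.78. In mCre, dropping mCre-TN replicate 1 gave 1.76 and dropping its replicate 2 gave 3.28, past the threshold each time. Tigit (chromosome 16, 43648867 to 43664146, minus strand) lay at 3.30 and 2.88 CPM in mCre-MP, 0.720 and 0.565 in mCre-TN, 2.42 and 2.71 in WT-MP, and 0.517 and 0.752 in WT-TN. MP exceeded TN by 2.22 in mCre (SE 0.327, adjusted p = 2.64e-05) and by 1.97 in WT (SE 0.361, adjusted p = 0.000285). The TN libraries of the 2 genotypes overlapped for both genes. Neither gene passed the test between genotypes: over both subsets the 95% interval was −0.22 to 1.17 for Ctla4 and −0.30 to 0.68 for Tigit.

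Cd160 and Btla encode receptors that share a ligand, HVEM, but CD160 is held in the membrane by a lipid anchor and is known from memory CD8+ T cells, NK cells and intraepithelial lymphocytes. Cd160 (chromosome 3, 96798763 to 96829351, minus strand) had 47.6 and 52.7 CPM in mCre-MP, 28.6 and 26.2 in mCre-TN, 70.2 and 65.3 in WT-MP, and 26.7 and 24.6 in WT-TN. All MP libraries lay above all TN libraries, and the TN libraries of the genotypes overlapped. The rise in MP over TN was 0.87 in mCre (SE 0.0781, adjusted p = 4.55e-08) and 1.41 in WT (SE 0.0811, adjusted p = 6.51e-11). In MP cells Cd160 was lower in mCre than in WT by a log2 fold change of −0.43 (SE 0.0735, adjusted p = 0.00164), and this call was kept with any library left out. In TN cells the genotype difference was 0.11, with a 95% interval of −0.07 to 0.29. The interaction was −0.54 (SE 0.113), with an unadjusted p of 0.000144 and an adjusted p of 0.0842, which does not pass. It did pass with no expression filter (adjusted p = 0.000435), as did the genotype difference over both subsets (−0.2, adjusted p = 0.0133 with no filter, against 0.318 with it). The fit with no filter called more genes in general, 81 for the interaction against 16 with the filter. Its Cd160 interaction was nearly the same size, at −0.55. An exon of Pdzk1 overlaps Cd160 on the opposite strand, and Pdzk1 had 1 to 6 counts per library.

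Btla (chromosome 16, 45224315 to 45257670, plus strand) was the most abundant of the 9 and differed least between subsets. Its levels were 132 and 128 CPM in mCre-MP, 115 and 121 in mCre-TN, 104 and 106 in WT-MP, and 107 and 105 in WT-TN. Each mCre library exceeded each WT library. In WT the subsets differed by −0.02 with a 95% interval of −0.12 to 0.09, with the libraries overlapping. In mCre, MP exceeded TN by 0.14 (SE 0.0506, adjusted p = 0.0373). That call was lost with DESeq2 (adjusted p = 0.118), with total counts only (0.103) and without any one of 5 libraries: WT-MP replicate 1 (0.0564) or 2 (0.0559), mCre-TN replicate 1 (0.265), and mCre-MP replicate 1 (0.231) or 2 (0.0825). Between genotypes Btla rose in MP by 0.31, or 1.24-fold (SE 0.051, adjusted p = 0.00106). Over both subsets it rose by 0.24 (SE 0.0399, adjusted p = 0.000464), while in TN alone it was 0.16 higher with an adjusted p of 0.116. The MP call and the call over both subsets were kept with any library left out.

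Havcr2, which encodes TIM-3 (chromosome 11, 46454935 to 46481255, plus strand), was among the least counted of the 9, with 30 and 31 counts in mCre-MP, 10 and 13 in mCre-TN, 17 and 13 in WT-MP, and 8 and 9 in WT-TN. Scaled to library size these were 1.65 and 1.28 CPM in mCre-MP, 0.327 and 0.667 in mCre-TN, 0.734 and 0.598 in WT-MP, and 0.591 and 0.483 in WT-TN. It rose in MP over TN in mCre by 1.61 (SE 0.451, adjusted p = 0.00972), a call that was lost with DESeq2 (adjusted p = 0.0511), without mCre-TN replicate 1 (0.165) and without mCre-MP replicate 1 (0.098). In WT the subset difference was 0.33, with a 95% interval of −0.78 to 1.43. The difference between these differences was 1.28 (95% interval −0.20 to 2.77, adjusted p = 0.889). In MP the mCre libraries lay above the WT libraries by 1.11, without passing the test (adjusted p = 0.176).

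Cd200 was the 1 gene of the 9 that was lower in MP cells. CD200 is itself a ligand rather than a receptor: it signals to cells that carry CD200 receptors, mostly myeloid cells. Cd200 (chromosome 16, 45382135 to 45409053, minus strand) had 0.824 and 1.15 CPM in mCre-MP, 3.76 and 2.82 in mCre-TN, 0.302 and 0.598 in WT-MP, and 4.58 and 3.22 in WT-TN. Its log2 fold change, MP over TN, was −1.72 in mCre (SE 0.333, adjusted p = 0.00047) and −3.1 in WT (SE 0.384, adjusted p = 3.29e-06), where the WT-MP level rests on 7 and 13 counts. The interaction was 1.37 (unadjusted p = 0.0187, adjusted p = 0.721). Lair1, which encodes a receptor for collagens (chromosome 7, 4003402 to 4063204, minus strand), had 36.2 and 36.7 CPM in mCre-MP, 17.3 and 20.4 in mCre-TN, 36.8 and 32.5 in WT-MP, and 19.6 and 17.4 in WT-TN. MP libraries lay above TN libraries by 0.96 in mCre (SE 0.0957, adjusted p = 1.85e-07) and 0.91 in WT (SE 0.101, adjusted p = 7.16e-07). The genotypes overlapped in both subsets, with 95% intervals of −0.12 to 0.26 in MP and −0.20 to 0.24 in TN.

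**Figure D1:**
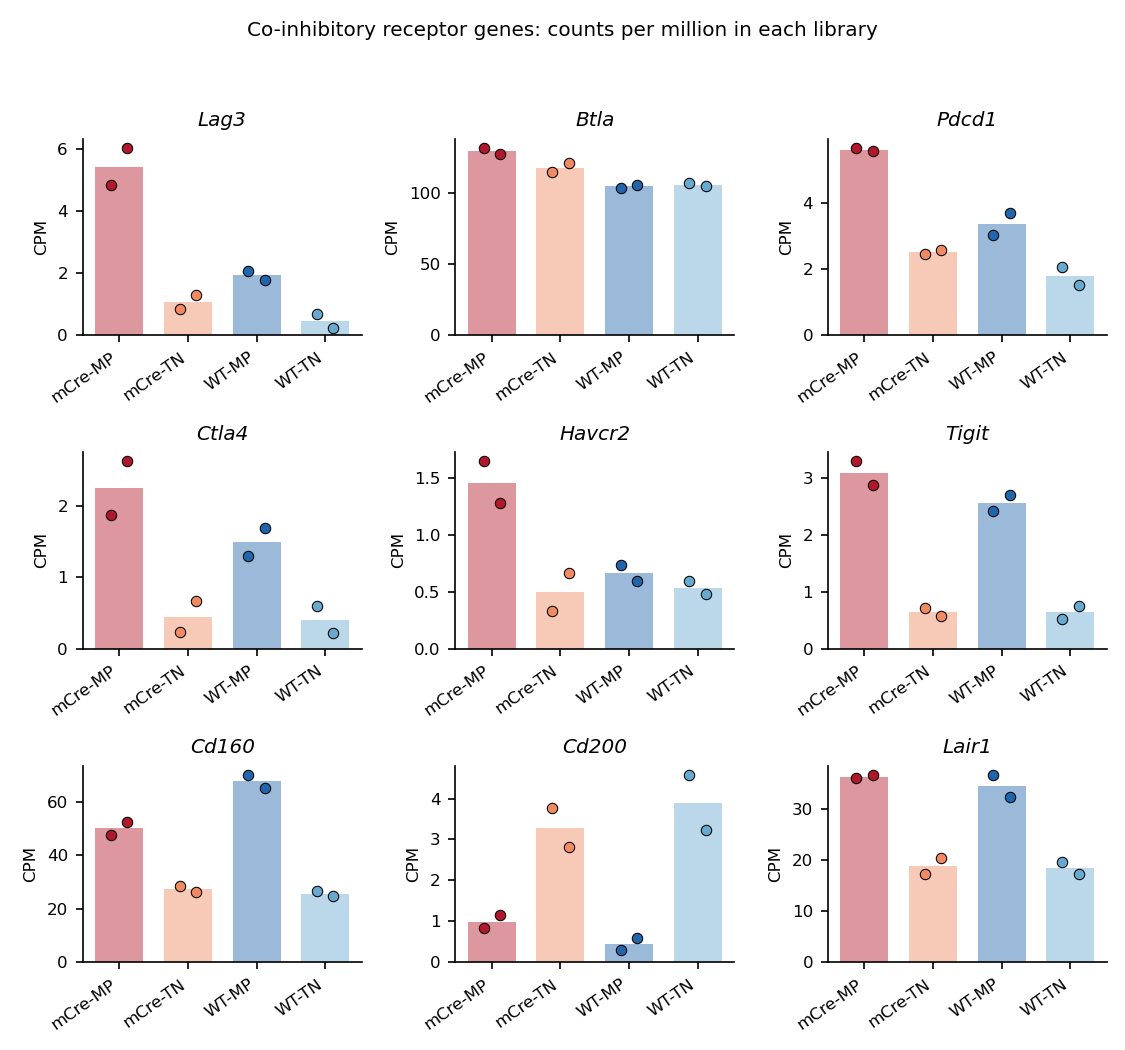
Levels of the 9 genes in CPM (y axes from 0, a scale of its own for each gene) in mCre-MP, mCre-TN, WT-MP and WT-TN; points are the 2 libraries and bars their mean. Lag3 reached 4.84 and 6.05 CPM in mCre-MP, above each other library, and Cd200 is the 1 gene whose TN libraries stand above the MP libraries in both genotypes.

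Counted together, all 9 genes passed in mCre between MP and TN, 8 upward and 1 downward, where 32.5% of all genes tested were called, 17% higher and 15.5% lower. In WT, 7 of the 9 passed, 6 upward and 1 downward, against 31.7% of all genes, 16.2% higher and 15.6% lower. Btla and Havcr2 were not called in WT, nor in mCre with DESeq2, which called 6 upward and 1 downward there. The 9 genes were chosen with earlier results of these data known. The median log2 fold change of the 9 was 1.16 in mCre and 0.93 in WT, while the median of all genes was 0.00237 and −0.00188. Libraries of MP and TN did not overlap for 9 genes in mCre and for 8 in WT. Among all genes tested, 34.2% were higher and 32.9% lower in MP with no overlap in mCre, and 31.9% and 32% in WT.

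NK cell markers rose along with these genes. All 10 tested markers of the 12 on that list were called higher in MP in both genotypes, beside 17% of all genes in mCre and 16.2% in WT. The list summed to 53.3 to 61.1 CPM in mCre-MP, 9.69 to 10.2 in mCre-TN, 66.2 to 69.1 in WT-MP and 9.08 to 9.24 in WT-TN. Klrb1c, a defining NK gene, had 35 to 60 counts in the MP libraries and 0 in each TN library, and Ncr1 had 3 to 15 and 0. A marker at 0 in TN could pass the expression filter only through its MP libraries, which sets its direction in advance. Memory CD8+ T cells share several NK genes. Of 9 tested CD4 and regulatory T cell markers, 2 were higher and 4 lower in MP in mCre, and 2 higher and 6 lower in WT. Of the dendritic cell list 1 of 10 was higher and 1 lower in each genotype. The shares over all genes were 17% higher and 15.5% lower in mCre, and 16.2% and 15.6% in WT. The part of these lists in the receptor differences was not tested. As these are bulk samples, more cells with a transcript and more transcript per cell cannot be told apart.

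**Figure D2:**
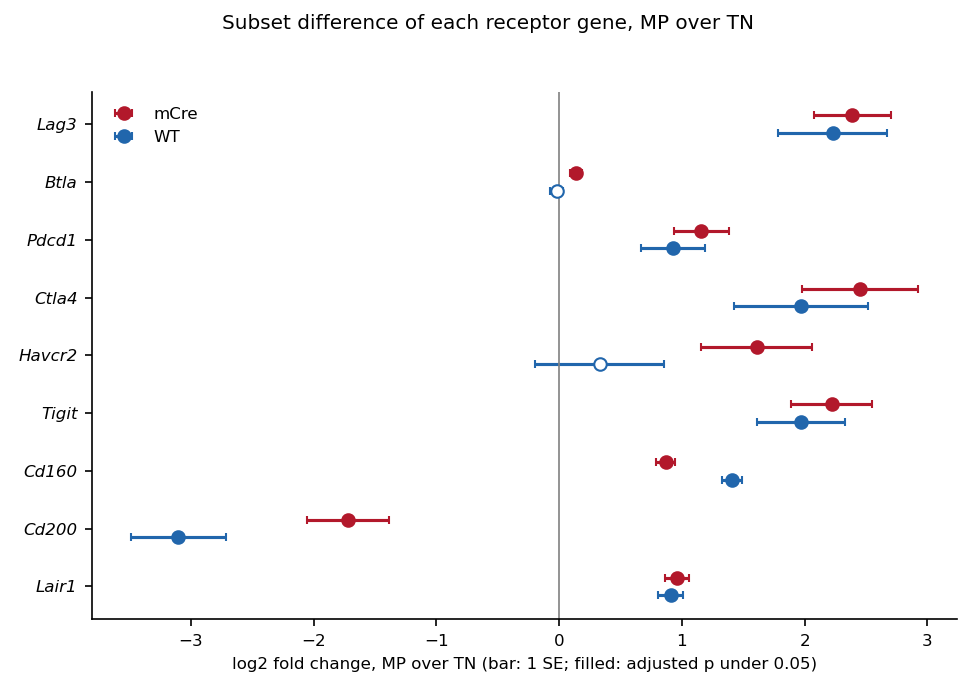
Log2 fold change of MP over TN for each gene in mCre and in WT; bars are 1 SE and filled points passed an adjusted p of 0.05. The genes other than Cd200 and, in WT, Btla lie right of 0, and Cd200 lies at −1.72 in mCre and −3.1 in WT.

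Between genotypes fewer genes moved. In MP cells edgeR called 2 of the 9 higher in mCre (Lag3 and Btla) and 1 lower (Cd160), as did DESeq2, while voom called 3 higher and 1 lower. Here 4.04% of all genes were called in either direction, 2.08% higher and 1.97% lower. In TN cells 0 of the 9 were called by edgeR, DESeq2 or voom, against 3.47% of all genes, 1.55% higher and 1.92% lower, and 2 were higher at an unadjusted p under 0.05 by each tool. Over both subsets 3 were called by edgeR, all higher (Lag3, Btla and Pdcd1), against 11% of all genes, 5.06% higher and 5.97% lower. With no expression filter Cd160 was also called, as lower. For the interaction 0 of the 9 passed with edgeR, DESeq2 or voom, where 0.13% of all genes did, 0.0487% higher and 0.0812% lower. With edgeR, Btla, Cd200 and Cd160 had an unadjusted p under 0.05. A difference between the TN and MP genotype effects was thus not shown for any of these 9 genes with the expression filter. In MP, 7 of the 9 genes had both mCre libraries above both WT libraries and 1 had them below, compared with 24.6% and 24.3% of all genes. In TN these counts were 3 and 0, compared with 22.3% and 23.5%.

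**Figure D3:**
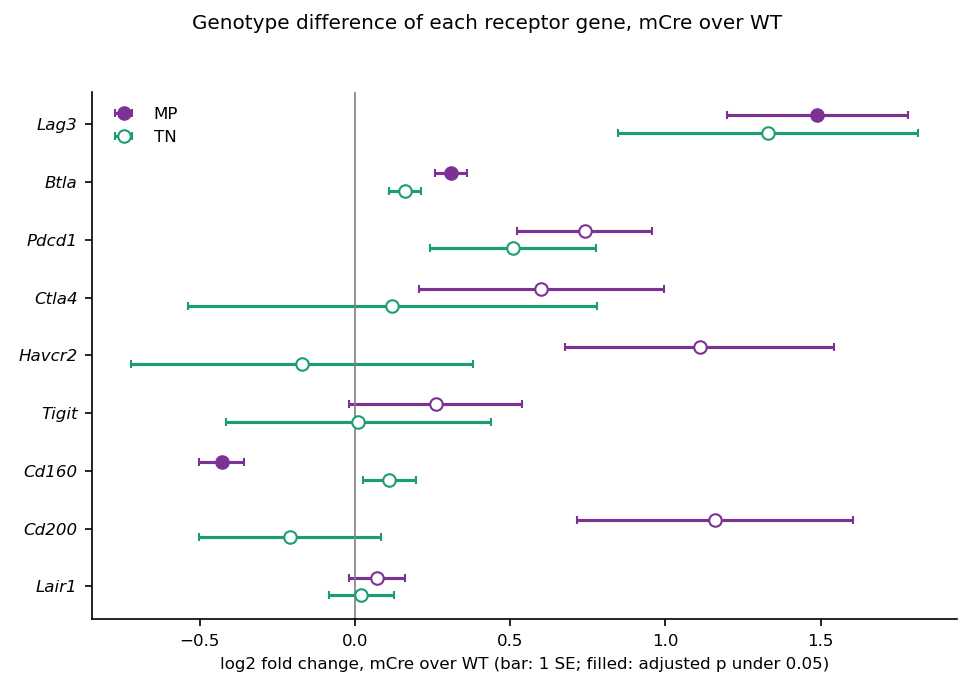
Log2 fold change of mCre over WT for each gene in MP and in TN; bars are 1 SE and filled points passed an adjusted p of 0.05. Filled points are Lag3 (1.49), Btla (0.31) and Cd160 (−0.43), each in MP.

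Macrophage markers also differed between genotypes. Their summed level was 54.9 to 56.1 CPM in mCre-MP and 69.7 to 105 in WT-MP, and 45.8 to 52.1 in mCre-TN and 68.8 to 92.4 in WT-TN. Over both subsets 11 of 18 tested markers of the 21 were called lower in mCre, beside 5.97% of all genes. C1qa, a defining macrophage gene, had 12 to 86 counts per library, so it was not at 0 in any group. Lag3, Btla and Pdcd1 moved in the opposite direction to this list, and Cd160 in MP in the same direction. NK cell markers were also lower in mCre-MP (53.3 to 61.1 CPM) than in WT-MP (66.2 to 69.1 CPM), with 1 of 10 called lower, beside 1.97% of all genes. The gamma-delta and NKT list, of which 4 genes are in the table, summed to 0.769 to 1.4 CPM in mCre-MP and 1.94 to 1.98 in WT-MP, and to 4.26 to 4.68 in mCre-TN and 2.47 to 2.51 in WT-TN. Zbtb16 of that list had 0.385 and 0.206 CPM in mCre-MP and 1.55 and 1.7 in WT-MP, the same direction as Cd160. In MP, 3 genes of that list were tested between genotypes, with 0 called higher in mCre and 1 lower, beside 2.08% and 1.97% of all genes. The median log2 fold change of these 3 was 1.13, the opposite direction to Cd160. Of 5 tested erythroid and platelet markers, 2 were called higher in mCre over both subsets, beside 5.06% of all genes. These 2 moved in the same direction as Lag3, Btla and Pdcd1. The part of these lists in the genotype differences was not tested.

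Levels of different genes were compared per kilobase of exon. In each of the 4 groups Btla came first, at 38.4 CPM per kilobase in mCre-MP, 34.8 in mCre-TN, 30.9 in WT-MP and 31.2 in WT-TN, followed by Cd160 and Lair1. In mCre-MP the order then ran Tigit (3.36), Pdcd1 (2.91), Lag3 (2.58), Ctla4 (0.966), Havcr2 (0.537) and Cd200 (0.298), with no overlap between neighbours. WT-MP had the same order, with Lag3 at 0.917. In mCre-TN Pdcd1 (1.30) and Cd200 (0.992) preceded Tigit (0.699) and Lag3 (0.506), and Ctla4 (0.192) and Havcr2 (0.183) overlapped. In WT-TN neither Cd200 (1.18) and Pdcd1 (0.926) nor Pdcd1 and Tigit (0.691) were apart beyond their libraries, and the same held for Lag3 (0.209), Havcr2 (0.197) and Ctla4 (0.173).

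**Figure D4:**
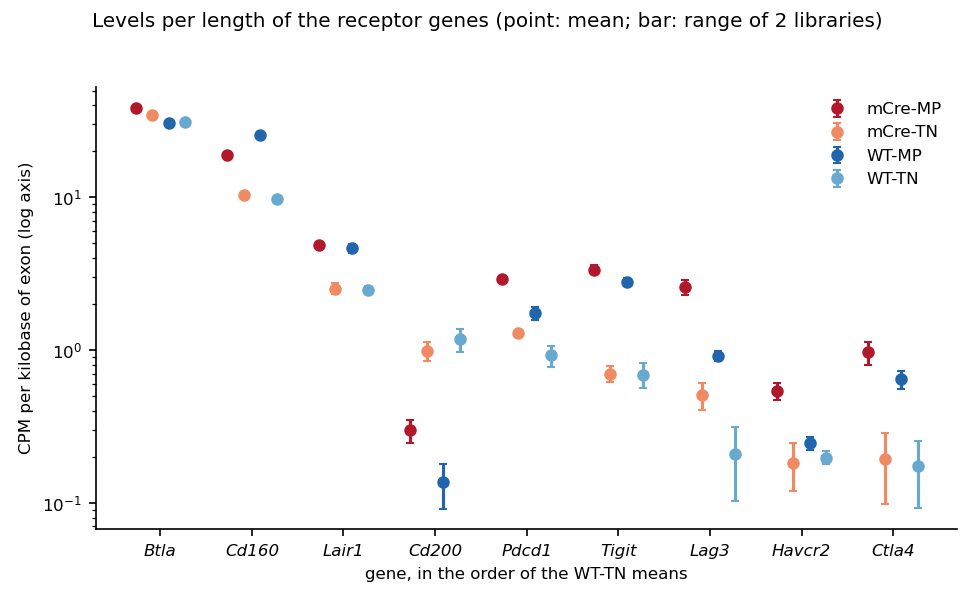
CPM per kilobase of exon (log axis) for the 9 genes in mCre-MP, mCre-TN, WT-MP and WT-TN, ordered by the WT-TN mean; points are means and bars the range of 2 libraries. Btla stands at 30.9 to 38.4 in each group, and Cd200 is last in both MP groups.

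Transcripts from a list of ligands for these receptors and of genes related to them were also present in the libraries. Which cells they came from was not tested. Of 17 tested genes on this list, 8 were higher and 3 lower in MP in mCre, and 6 higher and 3 lower in WT. The medians were 0.21 and 0.06. Of all genes, 17% were higher and 15.5% lower in mCre, and 16.2% and 15.6% in WT. Pvr, the TIGIT and CD226 ligand CD155, was at 31.4 and 32.8 CPM in mCre-MP, 14.1 and 12.5 in mCre-TN, 31.8 and 34.3 in WT-MP, and 12.3 and 11.5 in WT-TN, a rise in MP of 1.27 in mCre and 1.48 in WT. Lgals3, the galectin 3 gene, rose in MP by 3.24 in mCre and 2.49 in WT. Of the related genes, Fgl2, a fibrinogen-like gene, rose by 5.85 and 6.26, and Cd200r4, a relative of the CD200 receptor gene, by 1.79 and 1.5. Lgals9, which encodes the TIM-3 ligand galectin 9, was higher in mCre over both subsets by 0.13 (adjusted p = 0.0313), a call lost without any one of 6 libraries (all but replicate 2 of mCre-TN and of mCre-MP, adjusted p up to 0.147).

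Cd86, the ligand that CTLA-4 and CD28 share, changed direction with genotype. It was at 13.0 and 14.6 CPM in mCre-MP, 8.08 and 10.1 in mCre-TN, 8.12 and 7.08 in WT-MP, and 14.3 and 16.6 in WT-TN. MP was above TN by 0.62 in mCre (SE 0.14, adjusted p = 0.00204) and below TN in WT, at −1.03 (SE 0.146, adjusted p = 1.65e-05). The interaction was 1.64 (SE 0.202, adjusted p = 0.00047). The mCre call was lost without mCre-TN replicate 1 (0.45, adjusted p = 0.0608), and the interaction kept its call with any library left out.

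Of 24 tested genes on a list of other inhibitory receptors and related genes, 12 were higher and 6 lower in MP in mCre. In WT 12 were higher and 7 lower. The medians were 0.11 in mCre and 0.47 in WT. Of all genes, 17% were higher and 15.5% lower in mCre, and 16.2% and 15.6% in WT. Klrc1, which encodes NKG2A, was at 55.0 and 58.0 CPM in mCre-MP, 0.0327 and 0.154 in mCre-TN, 91.3 and 79.8 in WT-MP, and 0 and 0.0537 in WT-TN, and it was lower in mCre-MP than in WT-MP (−0.60, adjusted p = 0.000173). Il10ra, a chain of the interleukin 10 receptor, rose in MP by 1.37 in mCre and 1.49 in WT, and the adaptor gene Lax1 by 1.03 and 0.89. Cd5, an inhibitory receptor of T cells, was lower in MP (−0.79 in mCre and −0.92 in WT). Between genotypes this list had 2 genes higher and 4 lower of 24 over both subsets, where 5.06% of all genes were higher and 5.97% lower. Cd72 was lower in mCre (−0.35, adjusted p = 6.28e-05) and so was Cd101 (−0.56, adjusted p = 0.0285, lost without replicate 2 of any 1 group, adjusted p up to 0.117), while Pecam1 was higher (0.21, adjusted p = 0.00147).

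Of 13 tested genes on a list of costimulatory receptors and related genes, 5 were higher and 1 lower in MP in mCre. In WT 5 were higher and 3 lower. The medians were 0.03 in mCre and 0.09 in WT. The shares over all genes were the same 17% and 15.5% in mCre and 16.2% and 15.6% in WT. Crtam rose by 0.96 in mCre and 1.11 in WT, Cd28 by 0.52 and 0.66, and Cd7 by 0.42 and 0.76. Cd40lg, a ligand gene on this list, was lower (−2.2 in mCre and −2.33 in WT). Over both subsets 0 were higher and 4 lower in mCre, where 5.06% of all genes were higher and 5.97% lower. Among these, Cd226, the costimulatory rival of TIGIT, was at 145 and 145 CPM in mCre-MP and 174 and 161 in WT-MP, and at 150 and 146 in mCre-TN and 160 and 163 in WT-TN. Its difference over both subsets was −0.17 (SE 0.0376, adjusted p = 0.00593). Cd28, the rival of CTLA-4, differed by −0.16 (SE 0.0452, adjusted p = 0.0316), a call lost without WT-MP replicate 1 or replicate 2 of any 1 group (adjusted p up to 0.156).

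Signalling proteins used by inhibitory receptors, 24 tested, counted 10 higher and 7 lower in MP in mCre and 9 and 7 in WT, with medians of 0.1 and 0.03, against shares over all genes of 17% and 15.5% in mCre and 16.2% and 15.6% in WT. Ptpn22 (0.56 in mCre and 0.63 in WT) and Fyn (0.44 and 0.39) rose, and Pik3ip1 (−0.40 and −0.57) and Dgka (−0.35 and −0.47) fell. Pik3ip1, which restrains PI3 kinase, was higher in mCre than in WT by 0.49 in MP (adjusted p = 4.56e-05) and 0.32 in TN (adjusted p = 0.00261). A list of transcription factors of T cells was set beside the receptor genes, and their action on these genes was not tested. Of 28 tested, 8 were higher and 8 lower in MP in mCre and 10 and 8 in WT. The medians were 0 and 0.06, against these same shares. Bhlhe40 (4.65 in mCre and 4.86 in WT), Tbx21 (3.70 and 4.13), Myb (1.70 and 1.93) and Nfatc2 (0.71 and 0.70) rose. Without WT-TN replicate 2 the Bhlhe40 value in WT was 5.55. Over both subsets 5 of 28 were higher in mCre and 0 lower, where 5.06% of all genes were higher: Irf4 (0.87), Tox (0.25), Runx3 (0.19) and Hif1a (0.13) were among them. The Runx3 call was lost without mCre-TN replicate 2 (adjusted p = 0.0531), and the Hif1a call with DESeq2 (0.0721) and without any one of 6 libraries, all but replicate 1 of WT-TN and of mCre-TN (adjusted p up to 0.145). Irf4 lay at 3.19 and 4.32 CPM in mCre-MP, 3.50 and 6.42 in mCre-TN, 2.25 and 1.79 in WT-MP, and 1.85 and 3.44 in WT-TN (adjusted p = 0.0174), and its call was lost with voom (0.0528) and without WT-TN replicate 1 or replicate 2 of WT-MP, mCre-TN or mCre-MP (adjusted p up to 0.0763). Ikzf2 was higher in mCre-TN than in WT-TN (0.57, adjusted p = 0.00153) and lower in mCre-MP than in WT-MP (−0.79, adjusted p = 6.86e-05).

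Promoters of Tigit and Cd160 are shown, chosen after the search as the genes called between subsets in both genotypes with a window that held at least 2 of 4 motif families. Capitals mark the letters searched: TCACACC (T-box), TGTGGT (Runx), GGAAGT (Ets) and GGAAAA (NFAT), on both strands. Both windows are 300 bases around an annotated start, written 5' to 3' on the gene's own minus strand (RefSeq, GRCm38.p6).
Tigit, chr16:43664135-43664434: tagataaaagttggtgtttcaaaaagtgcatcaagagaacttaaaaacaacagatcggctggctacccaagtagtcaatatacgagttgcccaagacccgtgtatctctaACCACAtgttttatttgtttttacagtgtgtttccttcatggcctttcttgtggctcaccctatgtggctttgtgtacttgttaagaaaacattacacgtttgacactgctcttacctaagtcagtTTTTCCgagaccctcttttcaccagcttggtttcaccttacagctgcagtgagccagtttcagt
Cd160, chr3:96814472-96814771: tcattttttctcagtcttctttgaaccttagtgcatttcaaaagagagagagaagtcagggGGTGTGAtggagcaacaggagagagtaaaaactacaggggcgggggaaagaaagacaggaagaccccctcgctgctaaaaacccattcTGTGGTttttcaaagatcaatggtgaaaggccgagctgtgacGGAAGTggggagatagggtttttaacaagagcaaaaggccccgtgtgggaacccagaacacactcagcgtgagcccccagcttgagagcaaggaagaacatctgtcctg
The Tigit window holds 1 Runx and 1 NFAT match, and the Cd160 window, the second of 2 annotated for that gene, holds 1 T-box, 1 Runx and 1 Ets match; none of these overlap. Of the 9 windows found for 8 of the genes, 1 held the T-box letters, 5 the Runx letters, 3 the Ets letters and 2 the NFAT letters. The Runx letters were in windows of Btla, Havcr2, Tigit and Cd160 (2 windows), of which Btla and Havcr2 were not called between subsets in WT. Among all 32851 windows the shares were 3.98%, 16.8%, 23.8% and 23.4%.

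The genes whose levels over the 8 libraries were most like those of a receptor gene were found by Pearson correlation of log2 CPM. They are a description, as each r is among the 3 highest of at least 8432 candidate genes. For the genes other than Btla, MP and TN libraries stand apart within each genotype, which can set much of each r. For Btla each mCre library exceeded each WT library. For Lag3 these were Camk2d, Plcg2 and Fnbp1 (r of 0.986, 0.985 and 0.983), and for Btla the first was H2-M3 (0.97). Pdcd1 was most like Rsl1 (0.986), Ctla4 like Gaa (0.978), Havcr2 like Eif3c (0.986) and Tigit like Nabp1 (0.998). Cd160 was most like Nudt4 (0.993), Cd200 like Hnrnpa0 (0.986) and Lair1 like Prkar2a (0.996).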

How the data were processed

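The authors deposited 1 table of unnormalized read counts by gene symbol. Trim Galore, HISAT2, featureCounts and build mm10 are listed in the submitters' processing notes. The sources used here give no versions, annotation or strand setting. Per the labels' protocols the library kit kept strand. Counts were tested with edgeR 4.0.16 (R 4.3.3) by the quasi-likelihood F test, robust, with TMM scaling and filterByExpr, all 8 libraries in 1 fit of 4 group means; the comparison over both subsets had subset as covariate. P-values are two-sided and Benjamini-Hochberg adjusted over 12313 genes, with calls at an adjusted p under 0.05. The procedure was tested on simulated data. DESeq2 1.42.0, limma 3.58.1 (voom), other scaling, other filters, fits of the compared groups alone, a replicate block and leaving out each library were alternatives. Annotation was GENCODE M21 (GRCm38, also called mm10). Length was all merged exons. The members, and the 5 pathway and 8 marker lists, were chosen with earlier results of these data known. All 9 members were named, with up to 4 genes of each pathway list of smallest p in WT and up to 4 called ones per genotype comparison, some of which are given as counts only, and the 3 most alike genes of mean log2 CPM of at least 3, of which only the first is printed for 8 members. Protein motifs were not analysed here.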

Additional observations from a re-analysis of the deposited data

Results flagged for a closer look

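The 9 receptor genes and the list genes picked for naming were searched for genotype differences of opposite sign in the 2 subsets, with no overlap between libraries. The naming rule used the genotype and interaction tests in part, and the other list genes were not searched. The search found 3 list genes. For Cd86, shared ligand of CTLA-4 and CD28, the interaction was 1.64 on the log2 scale and passed the test (adjusted p = 0.00047). For Ikzf2, which encodes Helios, it was −1.35 and also passed (adjusted p = 3.74e-05). Id3 was higher in both mCre-TN libraries than in WT-TN and lower in both mCre-MP libraries than in WT-MP, with an interaction of −0.56 that did not pass the test. None of the 9 receptor genes met this rule with edgeR.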

How the results depend on the processing

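For the 9 receptor genes, 54 log2 fold changes were recomputed under the alternatives, giving 816 values: 769 kept direction and side of the threshold, 19 lost the call, 6 gained it and 22 changed sign. The sign changes were in values without a call. The cause of lost, gained and moved results was not tested. In some alternatives fewer genes or samples entered the fit. With no expression filter Btla in WT (MP against TN) was at 0.0029. Over the fits that leave out a library, the ranges were −0.03 to 0.0082 for Btla in WT (MP against TN), −0.02 to 0.16 for Lair1 in MP (mCre against WT), and in TN (mCre against WT) −0.71 to 0.92 for Ctla4, −0.69 to 0.33 for Havcr2, −0.20 to 0.33 for Tigit, −0.46 to 0.05 for Cd200 and −0.09 to 0.15 for Lair1. For the interaction they were −0.75 to 0.86 for Lag3, −0.00052 to 0.47 for Pdcd1, −0.33 to 1.30 for Ctla4, −0.07 to 0.46 for Tigit and −0.08 to 0.15 for Lair1. The stricter filter, which tests fewer genes, left 3 receptor genes called in WT and 4 in mCre between subsets. Lag3, Ctla4, Havcr2, Tigit and Cd200 did not reach that filter and were not tested. The receptor genes still tested kept their subset calls. With no filter 1 receptor gene (Cd160) was called for the interaction. The calls over all genes were then 783 between genotypes in TN, 888 in MP and 81 for the interaction, against 427, 498 and 16 with the filter. Interaction calls numbered 26 with DESeq2 and 7 with voom. Leaving out a library gave 204 to 446 calls in TN, 195 to 593 in MP, 9 to 32 for the interaction and 855 to 1198 over both subsets. With the longest transcript as length, 4 of 36 ranks of level changed. Fits with the replicate number as a block called 548 genes in TN, 617 in MP and 4036 between subsets in WT, and the same number of receptor genes as without it in each comparison. Deviations of same-numbered libraries from their group means correlated at 0.109 between WT-MP and WT-TN and 0.0769 between mCre-MP and mCre-TN. Across genotypes the correlations were −0.0446 to −0.0139. The numbers were not used as pairs in the main fit. The block joins same-numbered libraries of both genotypes, so a pairing of TN with MP within a genotype was not tested. Of 102 called list values, 0 changed sign and 125 of 1610 recomputed values lost the call. Some groups rest on few reads: Lag3 in WT-TN, Cd200 in WT-MP, Tigit in TN and Ctla4 and Havcr2 in TN had 4 to 22 counts per library.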
